A study of Rattus norvegicus with 12 samples.

Results

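The TGF-beta pathway was followed in the rat ventral prostate through 9 genes chosen by name: the ligands Tgfb1, Tgfb2 and Tgfb3, the receptors Tgfbr1 and Tgfbr2, and the intracellular mediators Smad2, Smad3, Smad4 and Smad7. Of these, 8 were measured among 14506 genes, each by 1 probe set with no other gene assigned to it. Tgfbr2 was not analysed here. The tissue came from 90-day-old male Wistar rats, in 4 groups of 3 arrays: castrated by orchiectomy (Cas), intact and treated once with 17β-estradiol in corn oil (25 mg per kg body weight; E2), castrated and given that dose (Cas+E2), and intact and given vehicle only (control, Ct). All glands were taken 3 days after treatment. Ketamine (150 mg/kg) and xylazine (10 mg/kg) are listed with orchiectomy, and their part cannot be told apart from that of losing the testes. The labels do not say whether rats that were only castrated also received the vehicle.

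TGF-beta ligands are secreted in latent complexes and, once released, bring together a type II and a type I receptor kinase on the cell surface. The type I receptor, Tgfbr1, phosphorylates Smad2 and Smad3, which join the shared partner Smad4 and act on genes in the nucleus, while Smad7 blocks the receptor as a feedback inhibitor. In the prostate, TGF-beta is known as a brake on epithelial growth and has been linked to epithelial cell death in the gland regressing after castration.

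Values are log2 levels, on which a step of 1 doubles the signal, and levels of different genes are not set against each other. "Rose" and "fell" are used of genes with a limma p-value under 0.05 after Benjamini-Hochberg adjustment over all 14506 genes. The 3 arrays per group limited the precision, with a median standard error of 0.19 for a castrated minus control difference. The design text names 48 rats in 4 groups and n = 3, and says neither which animal gave which array nor whether tissue was pooled: the spread that p-values rest on is that of these samples and may be partly technical. E2 arrays 1 and 2 stood apart by a narrower range of values: the SD across probe sets was 1.93 and 2.01 there, and 2.24 to 2.30 on the remaining 10 arrays. E2 array 3 differed in another way: the seminal vesicle protein gene Semg1 was at 9.46 there, and at most at 3.43 elsewhere. The secretory protein gene Scgb2a1, a marker of the ventral prostate, was at 12.46 to 12.88 on all 12 arrays. Pbsn, the androgen-dependent probasin gene, averaged 4.63 in castrated, 6.94 in estradiol-treated and 5.88 in combined-treated animals, against 11.20 in controls. Its arrays were uneven: 6.28, 4.82 and 9.71 on E2 arrays 1, 2 and 3, and 5.31, 7.45 and 4.88 on Cas+E2 arrays 1, 2 and 3. Controls were at 10.50 to 11.63.

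Smad3 was the member that changed. It rose 1.53-fold in castrated and 1.56-fold in estradiol-treated animals, and its 1.42-fold difference under the combined treatment missed the threshold. Smad3 levels were 7.34, 7.05 and 7.23 in castrated animals, 7.51, 7.04 and 7.14 in estradiol-treated animals, and 7.07, 7.01 and 7.22 under the combined treatment, against 6.59, 6.67 and 6.53 in controls. Every treated array lay above every control array, and the 3 treated groups overlapped one another. The log2 differences from control were 0.61 ± 0.16 for castration (SE, n = 3 per group, limma adjusted p = 0.0367), 0.64 ± 0.16 for estradiol (adjusted p = 0.0274) and 0.51 ± 0.16 for both (adjusted p = 0.0947). The 3 comparisons share the same control arrays, so they are not independent of each other.

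**Figure D1:**
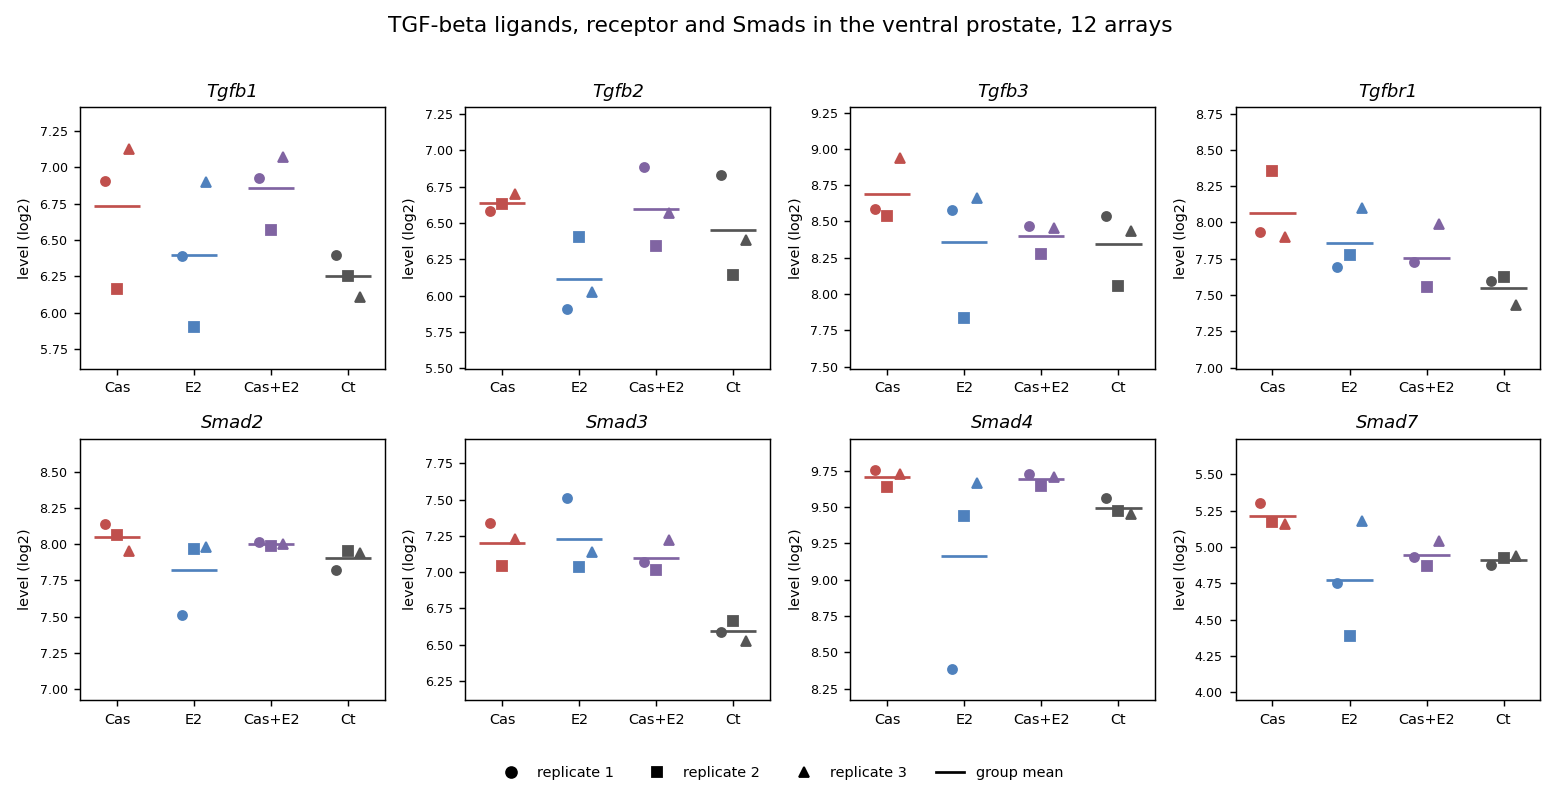
Levels of the 8 measured genes (y axis, log2, a separate range for each gene and none starting at 0) on the 12 arrays, by group; symbols mark replicate numbers and lines the group means. Smad3 was at 7.01 to 7.51 on the 9 treated arrays and at 6.53 to 6.67 in controls, and Smad4 was at 8.38 on E2 array 1, below all other arrays.

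The Smad3 calls were close to the threshold. In castrated animals the call ended when any single control array, castrated array 1 or 3, or any single Cas+E2 array was left out (adjusted p = 0.0564 to 0.151), with differences of 0.54 to 0.69 over the leave-one-out fits. The difference itself does not depend on the Cas+E2 arrays, which enter through the shared error. The castration call also ended with quantile normalisation (adjusted p = 0.108) and with all probe sets tested (adjusted p = 0.062). The estradiol call ended without any single control array (adjusted p = 0.081 to 0.104) and with only the 6 compared arrays (adjusted p = 0.176). It also ended without E2 arrays 1 and 2 together (a difference of 0.55). The combined treatment passed without E2 array 1 (adjusted p = 0.016), without E2 arrays 1 and 2 (adjusted p = 0.00916), and with only the 6 compared arrays (adjusted p = 0.00585).

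Marker lists of several cell types also differed from control, not all in the direction of Smad3. Of 8 luminal epithelial markers, 6 rose in castrated, 4 in estradiol-treated and 7 in combined-treated animals (of all genes 3.17%, 2.51% and 2.12%). Their summed level was 14.11 to 14.43 in castrated, 13.79 to 14.00 in estradiol-treated and 14.12 to 14.40 in combined-treated animals, against 13.27 to 13.39 in controls. Of 12 macrophage markers, 9, 3 and 6 rose in the same order of groups, beside the same shares of all genes. The macrophage sum was 11.72 to 12.43, 10.69 to 11.87 and 11.38 to 11.91 in these groups, against 10.05 to 10.57 in controls. The summed level of 7 markers of the ventral prostate secretory epithelium went the other way, at 13.92 to 14.12, 13.62 to 14.26 and 14.03 to 14.19 in these groups, against 14.66 to 14.73 in controls. Its members were mixed: 1 rose and 2 fell in castrated animals (of all genes 3.17% and 2.36%), 2 fell with estradiol (5.48%), and 1 rose and 1 fell with both (2.12% and 2.21%). Azgp1 averaged 8.52, 7.19 and 8.08 in the same order of groups, against 6.09 in controls. Smad3 was at 7.51, 7.04 and 7.14 on E2 arrays 1, 2 and 3. The macrophage sum was 10.69, 10.75 and 11.87 on these arrays, and the luminal sum 13.88, 13.79 and 14.00. E2 arrays 1 and 2 are those with the narrower range of values. Of 7 fibroblast markers, all 7 had negative differences with estradiol, while 7 were positive after castration and 6 with both. Of all genes, 56.7%, 51.6% and 56.7% were positive in these comparisons, in that order. By limma 1 fibroblast marker rose after castration (3.17% of all genes), 1 fell with estradiol (5.48%) and 0 passed with both. In whole tissue, fewer cells of a type and less RNA per cell cannot be told apart, and the part of these cells in the Smad3 values was not tested.

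The counts of members called were set against all genes. In castrated animals 1 of 8 members passed, and it rose; 5.54% of all genes passed, 3.17% higher and 2.36% lower. With estradiol 1 of 8 passed, and it rose; 7.99% of all genes passed, 2.51% higher and 5.48% lower. With both treatments 0 of 8 passed by limma, beside 4.32% of all genes, 2.12% higher and 2.21% lower (2 of 8 had an unadjusted p under 0.05, as did 14.7% of all genes). These counts lie near the background for so few genes. The moderated F test, which asks whether the 4 group means differ at all, was passed by 0 members and by 5.47% of all genes. Its smallest adjusted p among the members was 0.0624, for Smad3.

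All 8 members had positive differences in castrated animals (51.6% of all genes did) and under the combined treatment (56.7%), and 4 of 8 did with estradiol (56.7%). The median difference of the members was 0.32 for castration, -0.04 for estradiol and 0.17 for both, where the median of all genes was 0.01, 0.07 and 0.04. Arrays did not overlap between groups, with the treated group higher, for 5 of 8 members in castrated animals (18.8% of all genes), 2 of 8 with estradiol (12.3%) and 4 of 8 with both (21.1%). No member's arrays were wholly lower than the controls, where 13.7%, 15.1% and 15.8% of all genes were. Counted in either direction, 32.5%, 27.4% and 36.9% of all genes had groups that did not overlap.

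**Figure D2:**
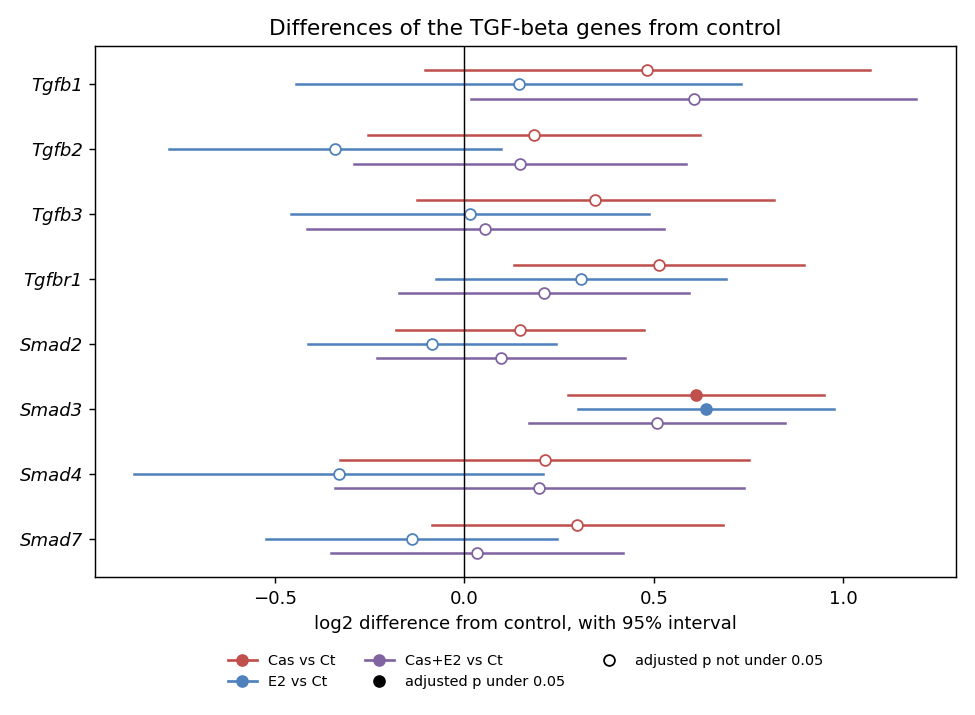
Log2 differences from control (x axis) of the 8 measured genes (y axis), with 95% intervals; filled points passed the test. Only the points of Smad3 for castration (0.61) and estradiol (0.64) are filled, and the intervals of Tgfb1 for both treatments (0.02 to 1.19), Tgfbr1 for castration (0.13 to 0.90) and Smad3 for both (0.17 to 0.85) lie above 0 without passing the adjusted test.

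Among the ligands none passed in the main fit. Tgfb1, the isoform most studied in regressing tissue, was at 6.91, 6.16 and 7.13 in castrated animals, 6.39, 5.90 and 6.90 with estradiol and 6.93, 6.57 and 7.07 with both, against 6.40, 6.25 and 6.10 in controls. Only the combined-treated arrays all lay above the controls, with a difference of 0.61 ± 0.27 (adjusted p = 0.318). Castration gave 0.48 ± 0.27 (adjusted p = 0.453), where castrated array 2 lay among the controls. Estradiol gave 0.14 ± 0.27 (adjusted p = 0.73), with arrays on both sides of the controls. With only the combined-treated and control arrays Tgfb1 passed (limma adjusted p = 0.0181), when 2871 genes did, against 627 in the main fit. With array weights it passed after castration (adjusted p = 0.00149) and with both (adjusted p = 0.00166), when 3788 and 4134 genes did.

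Tgfb2, which also needs the co-receptor betaglycan for efficient binding, was at 6.58, 6.63 and 6.70 in castrated animals, 5.91, 6.40 and 6.02 with estradiol and 6.88, 6.34 and 6.57 with both, against 6.83, 6.14 and 6.39 in controls. Each treated group overlapped the controls, although E2 arrays 1 and 3 lay below all control arrays and Cas+E2 array 1 above them. Differences from control were 0.18 ± 0.20, -0.34 ± 0.20 and 0.15 ± 0.20 (adjusted p = 0.829, 0.258 and 0.92).

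Tgfb3, the third ligand, overlapped the controls in all 3 treated groups and was lowest on E2 array 2. Its levels were 8.59, 8.54 and 8.94 in castrated animals, 8.58, 7.83 and 8.66 with estradiol and 8.47, 8.27 and 8.45 with both, against 8.54, 8.06 and 8.43 in controls. The differences were 0.35 ± 0.22 for castration (95% interval -0.13 to 0.82), 0.01 ± 0.22 for estradiol (-0.46 to 0.49) and 0.06 ± 0.22 for both (-0.42 to 0.53). With array weights Tgfb3 passed after castration (0.51, limma adjusted p = 0.0131), when 3788 genes did.

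Tgfbr1, the type I receptor kinase, had, after Smad3, the largest difference of the 8 in castrated animals. It was at 7.94, 8.35 and 7.90 in castrated animals, 7.69, 7.78 and 8.10 with estradiol and 7.73, 7.56 and 7.99 with both, against 7.59, 7.62 and 7.43 in controls. Castrated and estradiol-treated arrays all lay above the controls, while combined-treated array 2 did not. The differences were 0.51 ± 0.18 for castration (adjusted p = 0.13), 0.31 ± 0.18 for estradiol (adjusted p = 0.245) and 0.21 ± 0.18 for both (adjusted p = 0.768). The castration value passed without E2 arrays 1 and 2, which changes only the shared error and the adjustment, not the difference. With only the castrated and control arrays it also passed (adjusted p = 0.0497), when 1872 genes did, against 803 in the main fit.

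Smad2, the other receptor-activated mediator beside Smad3, had the smallest spread of the 8, an SD of 0.16 over 12 arrays. It was at 8.13, 8.07 and 7.95 in castrated animals, 7.51, 7.96 and 7.98 with estradiol and 8.01, 7.99 and 8.0 with both, against 7.82, 7.95 and 7.94 in controls. E2 array 1 was its lowest value. Differences from control were 0.15 ± 0.15, -0.08 ± 0.15 and 0.10 ± 0.15, with 95% intervals of -0.18 to 0.47, -0.41 to 0.24 and -0.23 to 0.42 (adjusted p = 0.804, 0.712 and 0.936).

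Smad4, the partner shared by all receptor-activated Smads, was at 9.76, 9.64 and 9.73 in castrated animals, 8.38, 9.44 and 9.67 with estradiol and 9.73, 9.64 and 9.71 with both, against 9.56, 9.47 and 9.45 in controls. All castrated and combined-treated arrays lay above the controls, by 0.21 ± 0.25 (adjusted p = 0.851) and 0.20 ± 0.25 (adjusted p = 0.902). The SD was 0.68 in the E2 group, against 0.04 to 0.06 in the other groups, and all 4 groups share 1 error. With estradiol the difference was -0.33 ± 0.25 (adjusted p = 0.366), and it was positive without E2 arrays 1 and 2 (0.17).

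Smad7, the feedback inhibitor and itself a target of the pathway, was the member with the lowest signal, under the median of each array, which lay between 5.53 and 5.76. It was at 5.30, 5.17 and 5.16 in castrated animals, 4.75, 4.39 and 5.18 with estradiol and 4.93, 4.87 and 5.04 with both, against 4.87, 4.92 and 4.94 in controls. Every castrated array exceeded every control array, with a difference of 0.30 ± 0.18 (adjusted p = 0.496). The estradiol arrays fell on both sides of the controls (-0.14 ± 0.18, adjusted p = 0.596), and both treatments gave 0.03 ± 0.18 (adjusted p = 0.99).

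The treated groups were also compared with each other. No member passed in Cas+E2 against Cas, Cas+E2 against E2 or E2 against Cas, and neither did any gene of the 14506 (0% in each). At an unadjusted p under 0.05 there were 0, 1 and 3 members, beside 1.05%, 18.9% and 27.3% of all genes. In E2 against Cas these were Tgfb2 (-0.53 ± 0.20, adjusted p = 0.153), Smad4 (-0.54 ± 0.25, adjusted p = 0.182) and Smad7 (-0.44 ± 0.18, adjusted p = 0.161). In that comparison 7 of 8 members were lower with estradiol, where 48.8% of all genes were higher. Arrays did not overlap for Tgfb3 and Smad7, lower in Cas+E2 than in Cas (of all genes 12.3%, 5.66% higher and 6.64% lower), for Smad2, higher in Cas+E2 than in E2 (15.6%, 9.04% higher and 6.55% lower), and for Tgfb2, lower in E2 than in Cas (18.7%, 9.47% higher and 9.21% lower). Without E2 array 3, Smad4 (-0.79, adjusted p = 0.0235) and Smad7 (-0.64, adjusted p = 0.0079) passed there, when 5417 genes did, and Smad4 passed in Cas+E2 against E2 (0.78, adjusted p = 0.0303).

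Whether estradiol acted alike with and without the testes was asked by the interaction, (Cas+E2 minus Cas) minus (E2 minus Ct). For Smad3 it was -0.74 ± 0.22: estradiol made a difference of -0.10 in castrated and 0.64 in intact animals. This missed the threshold (adjusted p = 0.147), as did Tgfbr1 (-0.61 ± 0.25, adjusted p = 0.304). None of the 8 members passed, beside 1.1% of all genes, and 2 of 8 had an unadjusted p under 0.05, beside 14.2%. Without E2 array 3, Smad3 passed (-0.78, adjusted p = 0.0419), when 1684 genes did, against 159 with all arrays.

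The wider pathway was read through 6 further lists covering activation, related ligands, receptors, Smad regulators, antagonists and target genes. Of their 81 measured genes, 15 (18.5%) changed in at least 1 comparison with control, as did 10.6% of all genes. By comparison, 9 passed after castration, 7 with estradiol and 5 with both treatments, where 5.54%, 7.99% and 4.32% of all genes passed; no test was made of these shares. Tgif2, a homeobox corepressor that binds Smads and limits their action on target genes, fell in all 3. Tgif2 was at 6.68, 6.44 and 6.41 in castrated animals, 6.50, 6.54 and 6.29 with estradiol and 6.72, 6.88 and 6.40 with both, against 7.55, 7.47 and 7.66 in controls. Every treated array lay below every control array. It fell by 1.05 ± 0.16 after castration (2.07-fold lower, adjusted p = 0.00162), by 1.12 ± 0.16 with estradiol (2.17-fold lower, adjusted p = 0.00125) and by 0.89 ± 0.16 with both (1.86-fold lower, adjusted p = 0.00517). All 3 calls held in each of the 22 alternatives tried.

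The windows before the annotated starts of Smad3 and Tgif2 are shown because these genes moved in opposite directions in the same animals. Both are 250 bases of the rat assembly GRCr8 from RefSeq, on the minus strand at chr8:73132325-73132574 and the plus strand at chr3:165793239-165793488, with GC box cores (GGGCGG or its reverse complement) in capitals.
Smad3: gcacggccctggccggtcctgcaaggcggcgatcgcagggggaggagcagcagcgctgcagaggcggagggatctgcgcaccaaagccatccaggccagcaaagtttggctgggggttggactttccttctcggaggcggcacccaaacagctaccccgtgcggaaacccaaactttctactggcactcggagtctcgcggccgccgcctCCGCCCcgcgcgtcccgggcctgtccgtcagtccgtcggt
Tgif2: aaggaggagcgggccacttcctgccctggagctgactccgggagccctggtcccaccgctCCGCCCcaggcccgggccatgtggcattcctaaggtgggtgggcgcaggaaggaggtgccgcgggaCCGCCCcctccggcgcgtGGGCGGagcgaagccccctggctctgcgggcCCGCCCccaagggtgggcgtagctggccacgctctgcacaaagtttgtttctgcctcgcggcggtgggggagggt
The Smad3 window holds 1 GC box core and the Tgif2 window 4, a motif found in 30.5% of the 33469 RefSeq windows of this length. G and C make up 68.4% and 72.8% of their bases, against a median of 51.2% over all windows. On either strand, neither window holds the Smad-binding core CAGAC (42.9% of windows), the androgen receptor core AGAACA (17.5%) or the oestrogen receptor core GGTCA (35.4%). Of the 9 named members, AGAACA was in the windows of Tgfb1 and Smad4 only. These are matches of letters and show neither binding nor its absence.

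**Figure D3:**
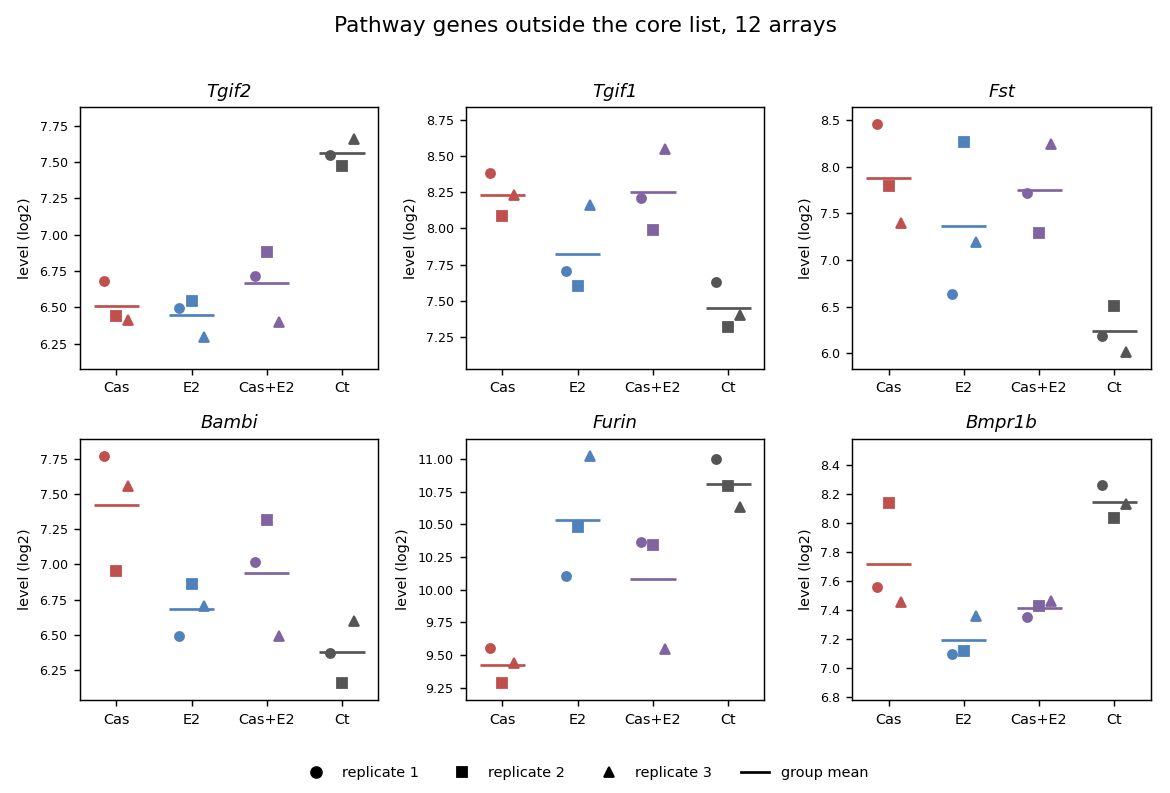
Levels (y axis, log2, a separate range for each gene and none starting at 0) of 6 genes of the wider pathway on the 12 arrays, by group; symbols mark replicate numbers and lines the group means. Tgif2 was at 6.29 to 6.88 on treated arrays and 7.47 to 7.66 in controls, and Furin was at 9.28 to 9.55 in castrated animals and 10.63 to 11.00 in controls.

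Of 16 measured Smads, adaptors and regulators outside the core list, 2 rose and 1 fell in castrated animals (of all genes 3.17% rose and 2.36% fell), 1 rose and 2 fell with estradiol (2.51% and 5.48%), and 1 rose and 1 fell with both (2.12% and 2.21%). Tgif1, the paralogue of Tgif2, moved the other way: it rose by 0.78 ± 0.19 after castration (adjusted p = 0.0278) and by 0.80 ± 0.19 with both (adjusted p = 0.0299), with 0.37 ± 0.19 under estradiol (adjusted p = 0.199). Zfyve9, also called SARA, which presents Smad2 and Smad3 to the receptor, rose by 0.79 ± 0.16 in castrated animals (adjusted p = 0.0119). Ppm1a, a phosphatase that acts on phosphorylated Smad2 and Smad3, rose by 0.70 ± 0.18 with estradiol (adjusted p = 0.0319), and Tgfbrap1, a receptor-associated protein, fell by 0.68 ± 0.19 (adjusted p = 0.0479). The Tgfbrap1 value was -0.43 without E2 array 1 (adjusted p = 0.0594) and -0.29 without E2 arrays 1 and 2 (adjusted p = 0.283). The list medians were 0.07, -0.05 and 0.09.

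Of 10 measured secreted and membrane antagonists, 2 rose and 1 fell in castrated animals (of all genes 3.17% rose and 2.36% fell), 1 fell with estradiol (5.48%) and 1 rose with both (2.12%), with medians of 0.05, 0.06 and 0.02. Fst, follistatin, which binds and blocks activins, was at 8.45, 7.79 and 7.40 in castrated animals, 6.63, 8.26 and 7.20 with estradiol and 7.71, 7.29 and 8.24 with both, against 6.18, 6.51 and 6.02 in controls. All treated Fst arrays lay above the controls. It rose 3.13-fold after castration (1.64 ± 0.37, adjusted p = 0.0203) and 2.85-fold with both (1.51 ± 0.37, adjusted p = 0.0372), and differed by 1.13 ± 0.37 with estradiol (adjusted p = 0.0757). Bambi, a decoy receptor without a kinase, rose 2.07-fold in castrated animals (1.05 ± 0.24, adjusted p = 0.0215). Fstl3, a follistatin relative, fell by 0.81 ± 0.19 after castration (adjusted p = 0.0217) and by 0.68 ± 0.19 with estradiol (adjusted p = 0.0448).

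Of 10 measured genes of the latent complex and its activation, Furin fell after castration (of all genes 2.36% fell) and Thbs1 rose with both treatments (2.12% rose). None passed with estradiol by limma (2 at an unadjusted p under 0.05, beside 30.2% of all genes). Furin, the convertase that cuts TGF-beta precursors among many other proteins, was at 9.55, 9.28 and 9.43 in castrated animals, 10.10, 10.48 and 11.02 with estradiol and 10.36, 10.34 and 9.55 with both, against 11.00, 10.80 and 10.63 in controls. It was lowest in castrated animals, 2.61-fold below controls (-1.39 ± 0.25, adjusted p = 0.00533), a call that held in all 22 alternatives. With both treatments the difference was -0.73 ± 0.25 (adjusted p = 0.149), and with estradiol -0.27 ± 0.25 (adjusted p = 0.456). Thbs1, thrombospondin 1, which can release TGF-beta from its latent form, rose 2.42-fold with both (1.27 ± 0.33, adjusted p = 0.0444), although combined-treated array 2 (7.14) lay below control array 1 (7.30). Tgfb1i1, a focal adhesion adaptor that is not itself part of the latent complex, had the smallest p with estradiol (-1.08 ± 0.33, adjusted p = 0.0597). The summed level of 8 smooth muscle markers was 11.95 to 12.48 with estradiol, against 12.74 to 12.97 in controls, and its part in the Tgfb1i1 value was not tested.

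Of 11 other measured receptors and co-receptors, 2 rose in castrated animals (of all genes 3.17%), 2 fell with estradiol (5.48%) and 1 fell with both (2.21%), with medians of 0.26, -0.28 and 0.15. The activin receptors Acvr1b and Acvr2a rose after castration by 0.72 ± 0.16 (adjusted p = 0.0161) and 0.70 ± 0.17 (adjusted p = 0.027). Bmpr1b, a type I receptor for bone morphogenetic proteins, fell by 0.95 ± 0.18 with estradiol (adjusted p = 0.00675) and by 0.73 ± 0.18 with both (adjusted p = 0.0357). Bmpr1b differed by -0.42 ± 0.18 after castration (adjusted p = 0.244). Eng, endoglin, a co-receptor of endothelial cells, fell by 0.73 ± 0.19 with estradiol (adjusted p = 0.0374). The summed level of 7 endothelial markers was lower there too, at 8.67 to 8.86 with estradiol against 9.05 to 9.31 in controls. All 7 differences were negative, where 56.7% of all genes had positive ones. Of the 7, 1 fell (Pecam1, -0.58 ± 0.16, adjusted p = 0.0392), beside 5.48% of all genes. The part of these cells in the Eng value was not tested.

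Of 15 other ligands of the superfamily, 1 passed, with estradiol (of all genes 2.51% rose and 5.48% fell). It was Bmp3, a bone morphogenetic protein, which rose by 0.61 ± 0.16 (adjusted p = 0.0392). Its call ended without any 1 of 9 arrays (adjusted p = 0.0542 to 0.157) and without E2 arrays 1 and 2 (0.41, adjusted p = 0.258). With castration and with both treatments none of the 15 passed by limma (0 and 1 at an unadjusted p under 0.05, beside 16.1% and 14.7% of all genes). The genes nearest to passing there were Gdf15 (-0.39 ± 0.21, adjusted p = 0.429) and Mstn (-0.35 ± 0.15, adjusted p = 0.303).

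Target genes of TGF-beta signalling did not pass. By limma 0 of 19 measured changed in castrated, estradiol-treated or combined-treated animals (4, 2 and 6 at an unadjusted p under 0.05, beside 16.1%, 30.2% and 14.7% of all genes), with medians of 0.07, -0.04 and 0.19. The smallest p-values belonged to Tsc22d1 after castration (0.59 ± 0.22, adjusted p = 0.17), Bhlhe40 with estradiol (-0.74 ± 0.28, adjusted p = 0.103) and Timp3, a metalloprotease inhibitor, with both (1.01 ± 0.27, adjusted p = 0.0553). Arrays of the treated group lay wholly above the controls for 3, 0 and 6 of the 19, beside 18.8%, 12.3% and 21.1% of all genes, and wholly below them for 1, 2 and 0, beside 13.7%, 15.1% and 15.8%.

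**Figure D4:**
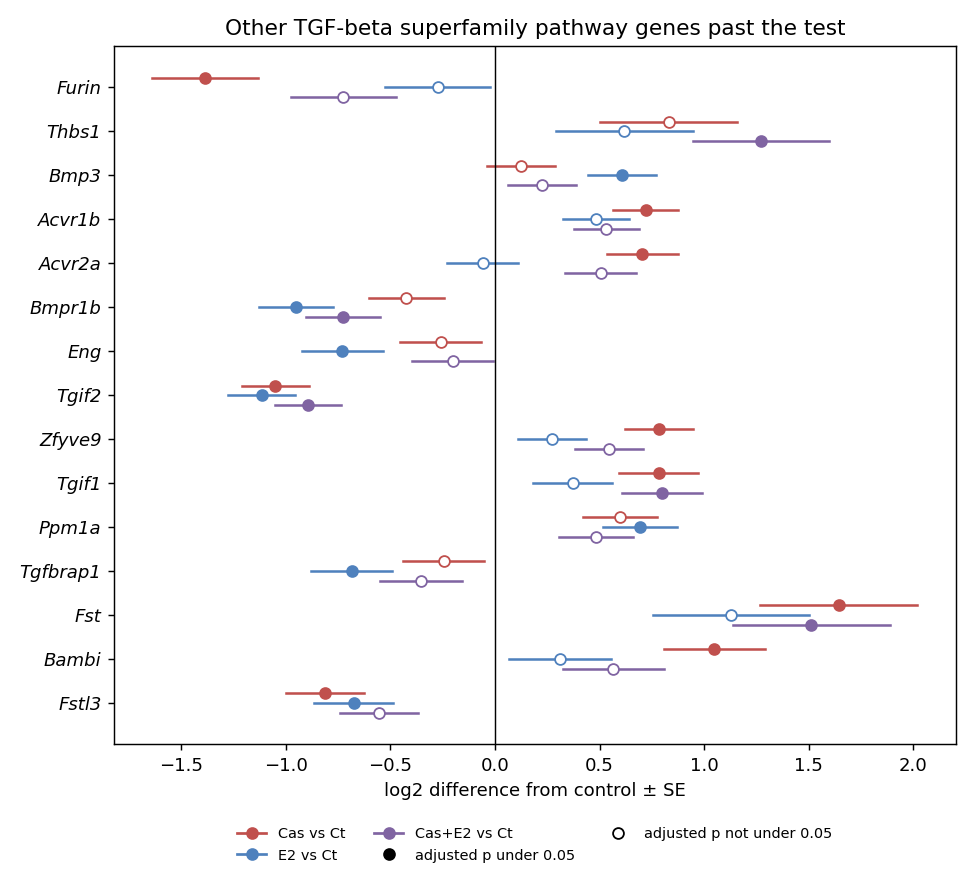
Log2 differences from control ± SE (x axis) of the 15 genes of the wider pathway that passed in at least 1 comparison (y axis); filled points passed. Tgif2 is filled below 0 in all 3 comparisons (-1.05, -1.12 and -0.89), and Fst is filled above 0 after castration (1.64) and with both treatments (1.51).

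Many calls in the wider pathway ended when 1 array was left out, while the differences kept their direction and mostly their size. After castration this held for Acvr1b (differences of 0.67 to 0.79 over the fits that left out 1 array; call lost without control 2 or 3 or castrated 1 or 2, adjusted p = 0.0524 to 0.0858), Zfyve9 (0.64 to 0.93; control 2 or 3, 0.0518 to 0.0616) and Acvr2a (0.58 to 0.78; any control or castrated array, 0.0522 to 0.119). It also held for Tgif1 (0.71 to 0.87; control 2 or 3, castrated 1 or 3, adjusted p = 0.0916 to 0.138) and Fst (1.36 to 1.89; any control, castrated 1 or 2, 0.052 to 0.0988). Bambi (0.88 to 1.29; control 1 or 2, castrated 1 or 3, adjusted p = 0.0728 to 0.116) and Fstl3 (-0.93 to -0.60; any control, castrated 2, 0.0607 to 0.0956) lost the call likewise. With both treatments, leaving out any single control array or Cas+E2 array 1 or 3 ended the calls of Bmpr1b (-0.78 to -0.67; also Cas+E2 array 2, adjusted p = 0.0957 to 0.153), Tgif1 (0.65 to 0.93; 0.0512 to 0.175) and Fst (1.27 to 1.74; also castrated array 2, 0.0545 to 0.194). The Thbs1 call (1.0 to 1.75) held without control array 1, E2 array 1 or Cas+E2 array 2, and ended without any other single array (adjusted p = 0.0509 to 0.227). An array outside the 2 groups compared changes only the shared error and the adjustment, not the difference. With all probe sets tested, Thbs1, Fst, Tgif1 and Bmpr1b lost their calls with both treatments, and Tgif1 its castration call. Median centring ended the calls of Thbs1, Fst and Tgif1 with both treatments, and quantile normalisation those of Thbs1 and Fst.

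Without E2 arrays 1 and 2, only E2 array 3 is left in that group. It had Semg1 at 9.46 and the highest Pbsn level of the group (9.71). The estradiol calls were also read in the fit with this 1 estradiol array, assumed to vary like the other groups. Tgif2 (-1.27, adjusted p = 0.00415) and Ppm1a (0.67, adjusted p = 0.0401) kept their calls there, while Bmpr1b (-0.78, adjusted p = 0.0751), Eng (-0.58, adjusted p = 0.216), Fstl3 (-0.44, adjusted p = 0.347), Tgfbrap1 and Bmp3 lost theirs. Leaving out any single control array ended the estradiol calls of Eng, Fstl3, Ppm1a, Tgfbrap1 and Bmp3. Over fits without 1 array Eng differed by -0.82 to -0.60 (call also lost without castrated 1, E2 1 or Cas+E2 1 or 2; adjusted p = 0.0521 to 0.149) and Ppm1a by 0.52 to 0.86 (also Cas+E2 1; 0.0541 to 0.106). Fstl3 differed by -0.79 to -0.56 and kept its call without castrated array 2 or E2 array 3 (otherwise adjusted p = 0.0545 to 0.152). Tgfbrap1 differed by -0.88 to -0.43 and kept its call without E2 array 3 (otherwise adjusted p = 0.0558 to 0.14). With only the arrays compared, Eng, Fstl3, Ppm1a, Tgfbrap1 and Bmp3 lost their estradiol calls too. Quantile normalisation and all probe sets tested each ended those of Eng, Fstl3, Tgfbrap1 and Bmp3. Median centring ended those of Ppm1a and Bmp3, and array weights those of Ppm1a and Eng.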

How the data were processed

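RNA of whole ventral prostate was hybridised to 12 Affymetrix arrays. The deposited log2 values cover 29214 probe sets; the submitters' processing notes name Affymetrix Expression Console, without its settings; how probes were summarised, and on which build, is not stated in the labels or the file header. Values were used without further scaling. By GEO's platform annotation 15310 probe sets had 1 gene symbol, 323 several and 13581 none; only the first kind was used, and 15279 matched a RefSeq gene ID. Where a gene had several (527 genes), its brightest probe set by the 12-array mean was kept, giving 14506 genes.

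Groups were taken from the labels. One mean per group was fitted to all 12 arrays with limma 3.58.1 in R 4.3.3 (lmFit, eBayes), with 8 residual and 5.29 prior degrees of freedom; tests were 2-sided. The procedure was tested on simulated data in which a gene had the same spread in every group. It therefore does not cover genes such as Smad4, whose spread was wider in the E2 group. Alternatives were a replicate block, median centring, quantile normalisation, other probe set and gene filters, only the arrays compared, array weights, a trended robust spread, and arrays left out.

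All measured members are named. From each wider list, up to 4 genes per comparison with control that passed are named, or the one with the smallest p where none did. For members past the F test the nearest genes by correlation would have been named; none passed. The members and lists were chosen with earlier results of these data known. Summed marker levels are log2 of the summed linear values. No 2 arrays were identical, and the highest correlation between arrays was 0.995. Listed genes without a probe set of their own were not analysed here.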

Additional observations from a re-analysis of the deposited data

Results flagged for a closer look

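Tgif2, the Smad corepressor, differed between castrated and intact animals in its response to estradiol. The effect of estradiol was 0.16 in castrated animals and -1.12 in intact animals, a difference of 1.27 ± 0.23 on the log2 scale (SE, limma adjusted p = 0.0171, n = 3 per group). Castrated animals without estradiol were already at 6.41 to 6.68, against 7.47 to 7.66 in controls.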

How the results depend on the processing

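The arrays compared were few, and the number of calls moved with the setting. Members called after castration (1) were 0 with quantile normalisation and with all probe sets, 2 with only the arrays compared, 5 with array weights, 2 without E2 arrays 1 and 2, and 0 to 1 over fits that each left out 1 array. Members called with estradiol (1) were 0 with only the arrays compared and without E2 arrays 1 and 2, and 0 to 1 with 1 array left out. With both treatments (0) they were 2, 2 and 1 with only the arrays compared, with weights and without E2 arrays 1 and 2, and 0 to 1 with 1 array left out. Members called in Cas+E2 against E2 (0) were 0 to 1 with 1 array left out, in E2 against Cas (0) 1 with weights and 0 to 2, in the interaction (0) 1 with weights and 0 to 1, and in the F test (0) 1 among genes above the median mean, 4 with weights, 1 without E2 arrays 1 and 2, and 0 to 2. In Cas+E2 against Cas the count was 0 throughout. Among all genes, calls with only the arrays compared, with weights and without E2 arrays 1 and 2 were 1872, 3788 and 2408 after castration (803; 361 to 1783 with 1 array left out), 197, 2307 and 733 with estradiol (1159; 390 to 5329), 2871, 4134 and 2105 with both (627; 265 to 1484), and 1, 13 and 1 in Cas+E2 against Cas (0; 0 to 1). With weights and without E2 arrays 1 and 2 they were 489 and 2 in Cas+E2 against E2 (0; 0 to 4153), 1627 and 6 in E2 against Cas (0; 0 to 5417; 5 with all probe sets), 1051 and 393 in the interaction (159; 63 to 1684), and 5306 and 1743 in the F test (793; 231 to 4952). The cause was not tested. Median centring moved the calls with estradiol to 202 higher and 1107 lower, beside 364 and 795, and with both treatments to 209 and 339, beside 307 and 320; quantile normalisation moved the interaction to 97 and 71, beside 113 and 46. Without E2 arrays 1 and 2 the balance turned, to 403 higher and 330 lower with estradiol and to 155 and 238 in the interaction; without E2 array 3 it was 2856 and 2473 with estradiol.

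With the replicate number as a block, 1, 1 and 0 members passed as before (Smad3 adjusted p = 0.0446 after castration and 0.0318 with estradiol), and all genes gave 825, 1255, 651, 0, 0, 0, 150 and 813 calls in the order above, while Bmpr1b with both treatments (adjusted p = 0.0518) and Tgfbrap1 with estradiol (0.0521) lost theirs. In their deviations from the group means, the 18 same-numbered pairs of arrays correlated at -0.156 to 0.284 (median 0.0723) and the 36 others at -0.248 to 0.285 (median -0.025). A total of 8 of 12 arrays correlated best with one of their own number, where 18 pairs were same-numbered and 36 were not. This is a hint of pairing from the data that the labels do not give. Some same-numbered pairs correlated below 0, which does not exclude pairing. The block was kept as an alternative because the labels name no pairing.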
